A study of Mus musculus with 2 samples.

Results

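The genes described are 44 genes of the DNA replication machinery, among the 32285 genes counted in single cells of mouse embryos at embryonic day 7 (E7). They were chosen by name, as the subunits of the origin recognition complex, the licensing factors, the Mcm helicase and its activators, the replicative polymerases, the sliding clamp and its loader, the enzymes that finish the lagging strand, replication protein A and 3 enzymes of deoxynucleotide supply. All 44 symbols were present in the tables. Embryos were pooled by genotype and each pool gave 1 droplet library counted by unique molecular identifiers (UMIs), with 3 *Yap1* cKO embryos (*Yap1* flox/flox with Sox2-Cre) in one pool and 4 littermate controls (*Yap1* flox/+ with Sox2-Cre) in the other. The Cre line recombines in the epiblast and its derivatives and not in the earlier extraembryonic lineages, and the study describes *Yap1* flox/flox embryos, with Cre or without, as probably heterozygous in extraembryonic tissue through the paternal allele. The labels call the control WT and both pools female, and the methods on mice call the controls floxed littermates without Cre. With 1 library per genotype no test between genotypes was made, and the 95% intervals given here cover the error of counting UMIs and nothing else. The question followed here is where a lower S-phase score of the extraembryonic cells of the *Yap1* cKO library comes from, read from the replication genes themselves.

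Replication starts when the origin recognition complex, with Cdc6 and Cdt1, loads the Mcm helicase on DNA in G1, and geminin (*Gmnn*) later blocks renewed loading. In S phase Cdc45 and the GINS complex turn the helicase on, primase with polymerase alpha lays down primers, and polymerases delta and epsilon extend them on the clamp PCNA, which the RFC complex loads. Transcripts of many of these genes peak around the G1/S transition, where E2F factors drive them, and therefore fill the lists by which S phase is scored in single cells. Visceral endoderm is the epithelium that surrounds the early embryo, and extraembryonic ectoderm is the proliferating trophoblast above the epiblast.

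The control library held 1829 barcodes and the *Yap1* cKO library 1897, of which 791 and 864 had at least 5000 detected genes and were used, with median depths of 75715 and 80922 UMIs. Marker genes that are not among the 44 placed 774 and 850 of these cells in populations, named here as "-like" after their markers, and left 6 mixed barcodes in each library aside. Among the extraembryonic cells, 74 control and 200 *Yap1* cKO cells were visceral endoderm-like, 18 and 21 were anterior visceral endoderm-like, and 177 and 99 were extraembryonic ectoderm-like. All 9 visceral endoderm markers had UMIs in the visceral endoderm-like cells of both libraries, and their sum had a median of 18808 UMIs per 1000000 (CPM) in control and 17851 in *Yap1* cKO cells. The 8 extraembryonic ectoderm markers summed to medians of 28.7 and 23.3 CPM in the same cells, with *Wnt7b* at 0 in the *Yap1* cKO library, against 1003 and 886 CPM in the extraembryonic ectoderm-like cells. Within a factor of 2 of these 2 gates lay 3 control and 6 *Yap1* cKO cells for visceral endoderm and 10 and 18 for extraembryonic ectoderm. The 18 *Yap1* cKO cells were more for a population of 99 than the 10 control cells for one of 177. At the anterior visceral endoderm gate 6 and 7 cells lay within that factor, many for a population of 18 and 21 cells. Anterior visceral endoderm-like cells had medians of 4450 and 4557 CPM for visceral endoderm markers and of 1244 and 1501 CPM for epiblast markers, so they are less sharply bounded. *Yap1* was counted at 1.23 CPM in the epiblast-like cells of the *Yap1* cKO library and at 28.5 CPM in those of the control library. In order of control and *Yap1* cKO, it stood at 31.6 (27.1 to 36.5) and 27.7 (25.2 to 30.4) CPM in visceral endoderm-like cells. Extraembryonic ectoderm-like cells had 24.7 (22.4 to 27.2) and 18.5 (16.2 to 21.1) CPM, with intervals that did not overlap. In anterior visceral endoderm-like cells *Yap1* stood at 39.1 (27.5 to 53.9) and 13.6 (8.52 to 20.6) CPM, from 37 and 22 UMIs. The reason for the lower *Yap1* counts in anterior visceral endoderm-like and extraembryonic ectoderm-like cells was not tested. Cells with at least 2 Y-linked UMIs and no *Xist*, called Y-bearing, made up 51.7% of the control and 15.5% of the *Yap1* cKO library, although the labels call both female, and *Xist*-bearing cells, with the reverse, made up 42.1% and 77.4%.

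The promoters of the 44 genes were searched for E2F sites, a common input to genes of the G1/S transition. RefSeq promoter windows (GRCm38.p6, 250 bases before to 50 after the start) were at hand for 36 of the 44 genes. The missing ones are *Mcm4*, *Gmnn*, *Gins1*, *Gins2*, *Gins4*, *Prim2*, *Pole* and *Rfc2*. The letters TTTGGCGC, TTTCGCGC, TTCCCGCC or TTTCCCGC, which are forms of the E2F site, were searched on both strands, and matches may overlap. At least 1 of them stood in the windows of 19 of the 36 genes (52.8%), against 4% of 27025 genes in the table, 47.1% of the other genes of the S-phase list and 6.38% of the list for G2 and M phase. The letters CCAAT stood in 63.9% of the 36 genes and 41.1% of all genes. They stood in 70.6% of the other S-phase genes and 76.6% of the G2 and M list, so they do not set the 36 genes apart. TTTGAA, a form of the element of G2/M genes, stood in 13.9% of the 36 genes and 20.2% of all genes. The letters GGGCGG stood in 75% and 38.2%, and in 76.5% and 74.5% of the 2 other lists. A match is a description of the letters and not a bound site. The 250 bases before the RefSeq start are printed 5′ to 3′ on the strand of the gene for 6 genes on which the results below turn. Another annotation, GENCODE, starts *Cdc6* at chr11:98907801, so by that start its printed stretch lies inside the gene. It starts *Prim1* at chr10:128015168, within the printed stretch, and the match of *Prim1* lies after that start, inside the gene. For *Rrm2* the GENCODE start is chr12:24708241, near the end of the printed stretch. *Mcm5*, *Mcm6*, *Cdc6*, *Pola1* and *Prim1* hold matches, marked by capitals, and *Rrm2*, the gene that differs most between the extraembryonic populations, holds none.
*Mcm5*, chr8:75109259-75109508, strand +: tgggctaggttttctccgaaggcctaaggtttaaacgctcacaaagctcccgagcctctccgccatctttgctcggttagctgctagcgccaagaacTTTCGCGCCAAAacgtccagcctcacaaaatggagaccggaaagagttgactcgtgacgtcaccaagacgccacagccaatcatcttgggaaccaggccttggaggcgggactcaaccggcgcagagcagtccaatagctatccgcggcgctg
*Mcm6*, chr1:128359706-128359955, strand -: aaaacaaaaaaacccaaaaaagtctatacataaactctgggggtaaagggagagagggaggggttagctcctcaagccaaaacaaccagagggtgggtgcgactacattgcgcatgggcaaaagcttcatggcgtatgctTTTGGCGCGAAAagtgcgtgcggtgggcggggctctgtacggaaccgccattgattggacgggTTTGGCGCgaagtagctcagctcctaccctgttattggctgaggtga
*Cdc6*, chr11:98907901-98908150, strand +: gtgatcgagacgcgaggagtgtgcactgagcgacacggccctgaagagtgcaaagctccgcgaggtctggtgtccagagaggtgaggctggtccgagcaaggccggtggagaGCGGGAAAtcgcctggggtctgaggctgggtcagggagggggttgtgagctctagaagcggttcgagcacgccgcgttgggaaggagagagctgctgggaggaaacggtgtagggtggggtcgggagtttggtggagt
*Pola1*, chrX:93632156-93632405, strand -: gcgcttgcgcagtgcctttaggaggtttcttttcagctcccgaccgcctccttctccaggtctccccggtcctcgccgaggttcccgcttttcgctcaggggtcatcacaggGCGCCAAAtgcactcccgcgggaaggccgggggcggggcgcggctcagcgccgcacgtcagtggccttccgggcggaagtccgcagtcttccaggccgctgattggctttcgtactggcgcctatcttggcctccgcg
*Prim1*, chr10:128014965-128015214, strand +: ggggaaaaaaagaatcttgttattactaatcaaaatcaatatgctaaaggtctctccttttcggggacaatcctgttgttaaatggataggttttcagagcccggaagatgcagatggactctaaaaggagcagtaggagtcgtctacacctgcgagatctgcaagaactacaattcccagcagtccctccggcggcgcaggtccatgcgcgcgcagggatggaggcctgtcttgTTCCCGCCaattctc
*Rrm2*, chr12:24708004-24708253, strand +: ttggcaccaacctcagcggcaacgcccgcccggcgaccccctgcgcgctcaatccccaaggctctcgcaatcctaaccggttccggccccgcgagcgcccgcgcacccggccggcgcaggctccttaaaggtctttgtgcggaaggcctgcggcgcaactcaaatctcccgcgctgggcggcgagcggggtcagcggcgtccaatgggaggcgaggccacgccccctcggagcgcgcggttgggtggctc
In *Mcm5* and *Mcm6* a pair of matches overlap on opposite strands, and *Mcm6* holds 1 more match nearer the start.

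The S-phase score was lower in the extraembryonic cells of the *Yap1* cKO library, and in the split over all cells most of that difference came from the kinds of cell the library held. The score is the mean log expression of the 43 genes of the Seurat S list minus that of control genes of like expression, in cells thinned to 38000 UMIs each. Its mean was 0.0791 over 255 control cells and -0.0239 over 291 *Yap1* cKO cells, a difference of -0.103. Visceral endoderm-like cells scored lower than extraembryonic ectoderm-like cells in both libraries, at -0.0393 against 0.140 in control and -0.0980 against 0.127 in *Yap1* cKO. Before thinning they made up 27.5% of the extraembryonic cells in the control library and 62.5% in the *Yap1* cKO library, while the share of extraembryonic ectoderm-like cells was 65.8% and 30.9%. The split used the scored cells, of which 68 and 176 were visceral endoderm-like and 170 and 94 extraembryonic ectoderm-like. The depth cut left out 6 control and 24 *Yap1* cKO visceral endoderm-like cells. Split arithmetically, with weights averaged over the libraries, the mix of populations accounted for -0.0694 of the difference (67.4%). The score within visceral endoderm-like cells gave -0.0256 (24.8%), that within extraembryonic ectoderm-like cells -0.00629 (6.10%) and that within anterior visceral endoderm-like cells -0.00174 (1.69%). A score of the 44 replication genes alone fell by 0.0932, of which 75.9% came from the mix, and the 25 genes of the S list that are not among them fell by 0.0876, of which 60.1% did. The split differed between *Xist*-bearing cells, where the mix gave -0.0322 of -0.0901 (35.7%), and Y-bearing cells, where the whole difference was -0.0156 and the mix term -0.0617. The term within populations depended on how the score was built. With control genes picked within each library separately, an alternative added after the data were seen, the difference within visceral endoderm-like cells was -0.00658 instead of -0.0587, and the whole difference was -0.0388. How many cells of each kind an embryo held and how many were recovered from each pool cannot be told apart.

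**Figure D1:**
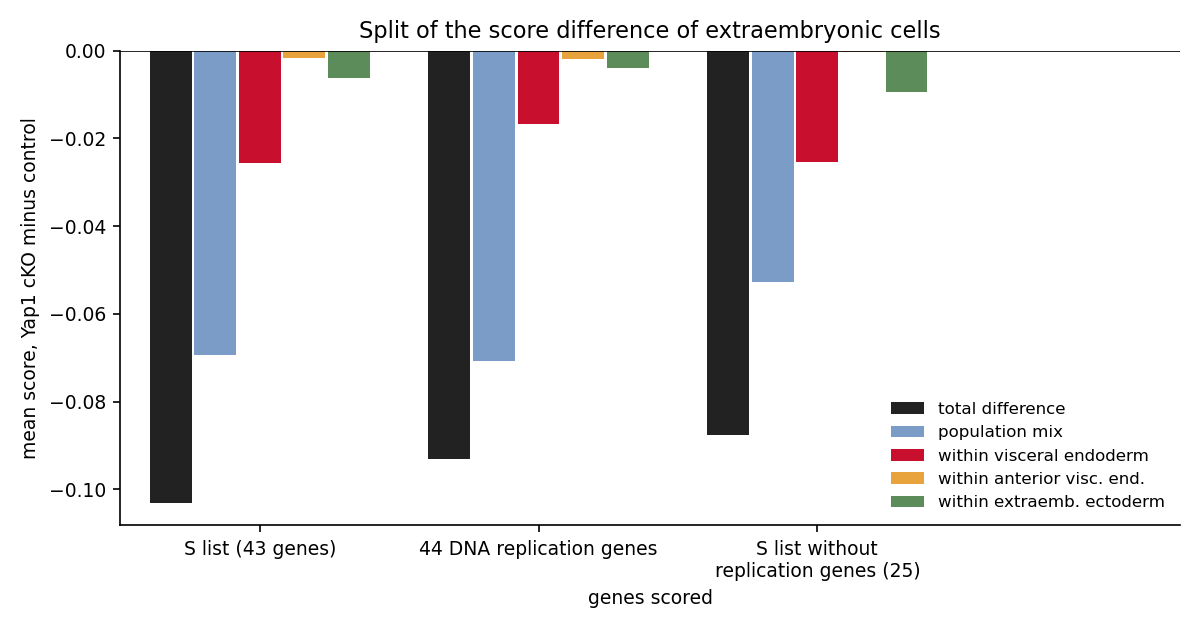
Mean score of extraembryonic cells of the *Yap1* cKO library minus that of the control library (vertical axis, score units) for 3 gene lists, with the total in black, the term for the population mix in blue and the terms within each population in red, orange and green. The mix term is the largest part for each list, -0.0694 of -0.103 for the S list and -0.0707 of -0.0932 for the 44 replication genes.

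Of the 43 genes of the S list, 18 are replication genes described here, and 17 of them had a lower mean log value in the extraembryonic cells of the *Yap1* cKO library. Of the other 25 genes of the list 22 were lower too, so this count does not set the 18 apart. The share over all genes was not counted. Together the 18 carried 50.6% of the summed difference of the list, and the mix accounted for 72.3% of their part, against 56.8% for the other 25 genes. *Rrm2*, the regulated subunit of ribonucleotide reductase, carried the most, with a mean log value of 1.26 in control and 0.803 in *Yap1* cKO cells, a difference of -0.453 that is 10.5% of the list's sum. The helicase genes followed, with differences of -0.281 for *Mcm4*, -0.215 for *Mcm5* and -0.202 for *Mcm6*, and then the licensing inhibitor *Gmnn* with -0.182. For *Rrm2* -0.331 of the difference came from the mix, and for *Mcm4* -0.190. For 3 genes the larger part lay within populations, namely -0.0797 of -0.111 for the primase subunit *Prim1*, -0.0392 of -0.0720 for *Rrm1* and -0.0302 of -0.0574 for *Cdc45*. *Gins2*, a GINS subunit, was the gene among the 18 that moved the other way, by 0.0937, of which 0.0823 came from the mix. The remaining members of the list, *Pcna*, *Cdc6*, *Rfc2*, *Mcm2*, *Rpa2*, *Rrm1*, *Pola1*, *Fen1*, *Pold3*, *Cdc45* and *Tyms*, differed by between -0.104 and -0.0399.

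Summed over the 44 genes, replication transcripts were lowest in visceral endoderm-like cells among the 9 populations of both libraries, with the anterior visceral endoderm-like cells next. They took 2949 CPM (2904 to 2994) in control and 2632 CPM (2607 to 2657) in *Yap1* cKO visceral endoderm-like cells, and 3108 and 2834 CPM in anterior visceral endoderm-like cells. In extraembryonic ectoderm-like cells they took 4561 CPM (4529 to 4593) and 4477 CPM (4440 to 4514), close to the 4498 and 4362 CPM of epiblast-like cells. The primitive streak-like, nascent mesoderm-like, *Foxf1*/*Hand1* mesoderm-like and blood progenitor-like cells lay between 4116 and 4413 CPM in both libraries, and node-like cells, 16 and 12 in number, at 3661 and 4127 CPM. Across single cells thinned to equal depth, the visceral endoderm-like values ran from 1684 over a median of 2921 to 4500 CPM in control and from 1395 over 2658 to 4263 CPM in *Yap1* cKO. The extraembryonic ectoderm-like values ran from 2658 over 4711 to 6921 CPM and from 3105 over 4500 to 6632 CPM. The lower quartile of control extraembryonic ectoderm-like cells, 4105 CPM, was reached by 75.3% of those cells, as its definition sets, and by 75.5% in *Yap1* cKO. It was reached by 5.88% and 2.84% of the visceral endoderm-like cells, so the populations overlapped little above it. The ranges did overlap, since the lowest control extraembryonic ectoderm-like value, 2658 CPM, lay below the control visceral endoderm-like median. Fewer cells with replication transcripts and fewer transcripts in each cell cannot be told apart in a sum, and the single-cell values show a lower median, quartiles and maximum in visceral endoderm-like cells.

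**Figure D2:**
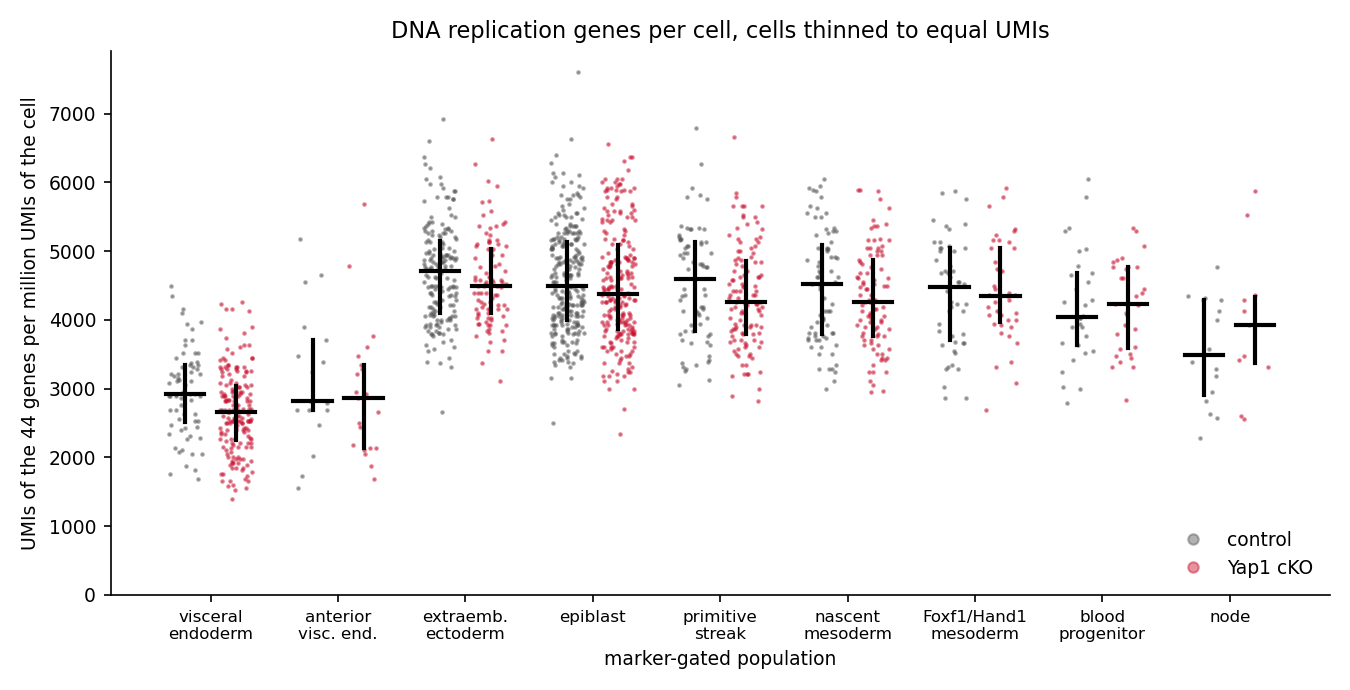
UMIs of the 44 genes per 1000000 UMIs of the cell (vertical axis, CPM) in 9 marker-gated populations (horizontal axis, each "-like"). Every point is 1 cell thinned to 38000 UMIs, grey for control and red for *Yap1* cKO, and black lines give the median and the quartiles. Visceral endoderm-like cells have medians of 2921 and 2658 CPM and extraembryonic ectoderm-like cells 4711 and 4500 CPM.

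The difference between the extraembryonic populations stood in both libraries and held for most of the machinery. Values are ratios of CPM between visceral endoderm-like and extraembryonic ectoderm-like cells of the same library, divided by the median ratio of all genes with at least 100 UMIs. The median over the 44 genes was 0.715 in control and 0.576 in *Yap1* cKO. A ratio below 0.8 was found for 30 genes in control, where 34% of all genes were, and 38 in *Yap1* cKO, where 34.9% were. In both libraries at once 30 of the 44 genes were below 0.8, against 29.9% of all genes, and 1 was above the inverse, 1/0.8, against 30.9%. *Rrm2* lay lowest, at 103 CPM in visceral endoderm-like and 368 CPM in extraembryonic ectoderm-like control cells, a ratio of 0.292, and at 70.5 and 332 CPM in *Yap1* cKO, a ratio of 0.204. The helicase subunits *Mcm4* (0.378 in control and 0.332 in *Yap1* cKO) and *Mcm5* (0.454 and 0.427), the loading factor *Cdc6* (0.423 and 0.352) and the catalytic subunit of polymerase delta, *Pold1* (0.452 and 0.394), came next in the control library. At the other end stood *Gins2*, at 77.6 CPM in visceral endoderm-like and 33.6 CPM in extraembryonic ectoderm-like control cells, with ratios of 2.4 and 2.06. The other GINS subunits did not share this, since *Gins1*, *Gins3* and *Gins4* had ratios between 0.527 and 0.707 in control and between 0.424 and 0.561 in *Yap1* cKO. *Pola2*, the accessory subunit of polymerase alpha, *Tyms*, which makes thymidylate, *Prim1* and *Rpa3* were near the median gene in control, at 1.14, 1.12, 1.01 and 0.996. In *Yap1* cKO they stood at 0.923, 0.691, 0.707 and 0.924. Against epiblast-like cells the visceral endoderm-like medians were 0.723 and 0.613, with 25 of the 44 genes below 0.8 in both libraries where 32.5% of all genes were. Extraembryonic ectoderm-like cells stood at medians of 0.989 and 1.04 against epiblast-like cells, where 6 genes were below 0.8 and 7 above 1/0.8 in both libraries against 29% and 26.9% of all genes. *Gins2* was the lowest of these, at 0.456 and 0.476, and *Gmnn* the highest, at 1.74 and 1.76.

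**Figure D3:**
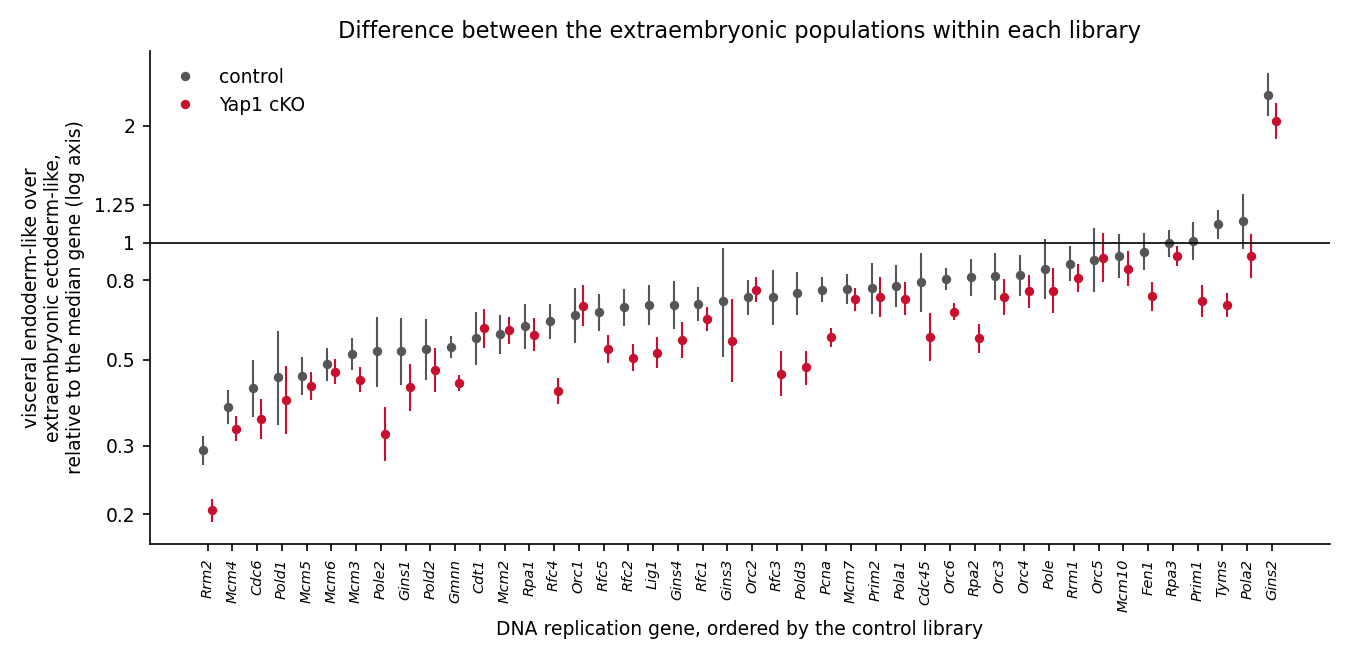
Ratio of CPM in visceral endoderm-like over extraembryonic ectoderm-like cells of the same library, relative to the median gene (vertical log axis), for the 44 genes ordered by the control value (horizontal axis). Grey marks control, red *Yap1* cKO, and lines are 95% counting intervals. *Rrm2* lies lowest at 0.292 and 0.204, and *Gins2* lies above 1 at 2.4 and 2.06.

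Within visceral endoderm-like cells the replication genes were also somewhat lower in the *Yap1* cKO library. Their summed CPM gave a ratio of *Yap1* cKO to control of 0.906 (0.890 to 0.922) relative to the median gene, and the median of the 44 ratios was 0.890. Below 1 were 36 of the 44 genes, and 17 had a counting interval wholly below 1, as 13.4% of all genes did, against 2 wholly above, as 13.8% of all genes did. A ratio below 0.8 was found for 7 genes, where 7.73% of all genes had one, and none was above 1/0.8, where 8.65% of all genes were. Visceral endoderm-like cells of the libraries had similar depth, with median UMIs of 73174 and 74677, and *Yap1* cKO cells had lower medians of visceral endoderm and of epiblast markers (495 and 406 CPM for the latter). The part of these shifts in the result was not tested.

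By role, the enzymes of nucleotide supply were lowest. In order of control and *Yap1* cKO, *Rrm2* stood at 103 and 70.5 CPM, a relative ratio of 0.692 (0.626 to 0.766). *Tyms* stood at 131 and 98.2 CPM, a ratio of 0.763 (0.699 to 0.833). *Rrm1*, the large subunit of the reductase, stood at 83.7 and 74.7 CPM with a ratio of 0.905 (0.814 to 1.01), so the partners did not differ to the same degree. The clamp loader held the lowest of the 44 genes, *Rfc3*, at 33 and 21.7 CPM with a ratio of 0.668 (0.558 to 0.802). Of its partners *Rfc4* stood at 76.9 and 62.4 CPM and *Rfc2* at 71.9 and 60.8 CPM with ratios of 0.824 and 0.859, and *Rfc5* had 0.866, while *Rfc1*, the large subunit, had 1.02 (0.917 to 1.13). The clamp gene *Pcna* stood at 151 and 132 CPM with 0.885 (0.818 to 0.959). Among the polymerases delta and epsilon the lowest were the accessory subunits *Pole2* at 19.6 and 13.4 CPM with a ratio of 0.696 (0.551 to 0.883) and *Pold3* at 53.2 and 39.0 CPM with 0.744 (0.648 to 0.856). The accessory subunit *Pold2* had 0.948 and the catalytic subunits *Pole* and *Pold1* had 1.03 and 0.888, all with intervals that held 1. *Prim1*, the catalytic primase subunit, stood at 72.8 and 54.6 CPM with 0.761 (0.676 to 0.857), while *Pola1*, at 55.7 and 48.4 CPM, had 0.882 (0.773 to 1.01) and *Pola2* and *Prim2* had 0.910 and 0.875.

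The origin recognition complex lay nearest the median gene among the roles. Its 6 subunits had a median of 0.977, and *Orc2*, the highest of the 44 genes, stood at 76.5 and 86.6 CPM with a ratio of 1.15 (1.03 to 1.28). *Orc5* had 1.05 and *Orc1* 0.995. Of the licensing factors *Cdt1* stood at 33.8 CPM in both libraries with 1.01, *Gmnn* at 181 and 165 CPM with 0.930 (0.865 to 1.0, the upper bound just below 1), and *Cdc6* at 28.9 and 25.1 CPM with 0.882 (0.734 to 1.06). The helicase subunits, whose products form 1 ring, did not move together. *Mcm3* stood at 86.6 and 68.6 CPM with 0.805 (0.723 to 0.897) and *Mcm4* at 73.2 and 61.6 CPM with 0.855 (0.762 to 0.961). *Mcm6*, at 82.3 and 73.7 CPM, and *Mcm5*, at 63.5 and 56.9 CPM, had 0.909 and 0.910. *Mcm2* stood at 60.8 and 66.4 CPM with 1.11, and its interval held 1. *Cdc45*, which completes the active helicase, stood at 28.7 and 21.9 CPM with 0.775 (0.642 to 0.938), while *Gins2*, at 77.6 and 80.5 CPM, had 1.05. The flap endonuclease gene *Fen1*, at 77.6 and 66.4 CPM, and the gene of the nick-sealing ligase, *Lig1*, at 59.2 and 50.5 CPM, had 0.868 and 0.866. Of replication protein A, which coats single strands, *Rpa2* stood at 73.7 and 58.7 CPM with 0.808 (0.720 to 0.909) and *Rpa3* at 145 and 155 CPM with 1.09 (1.0 to 1.18).

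**Figure D4:**
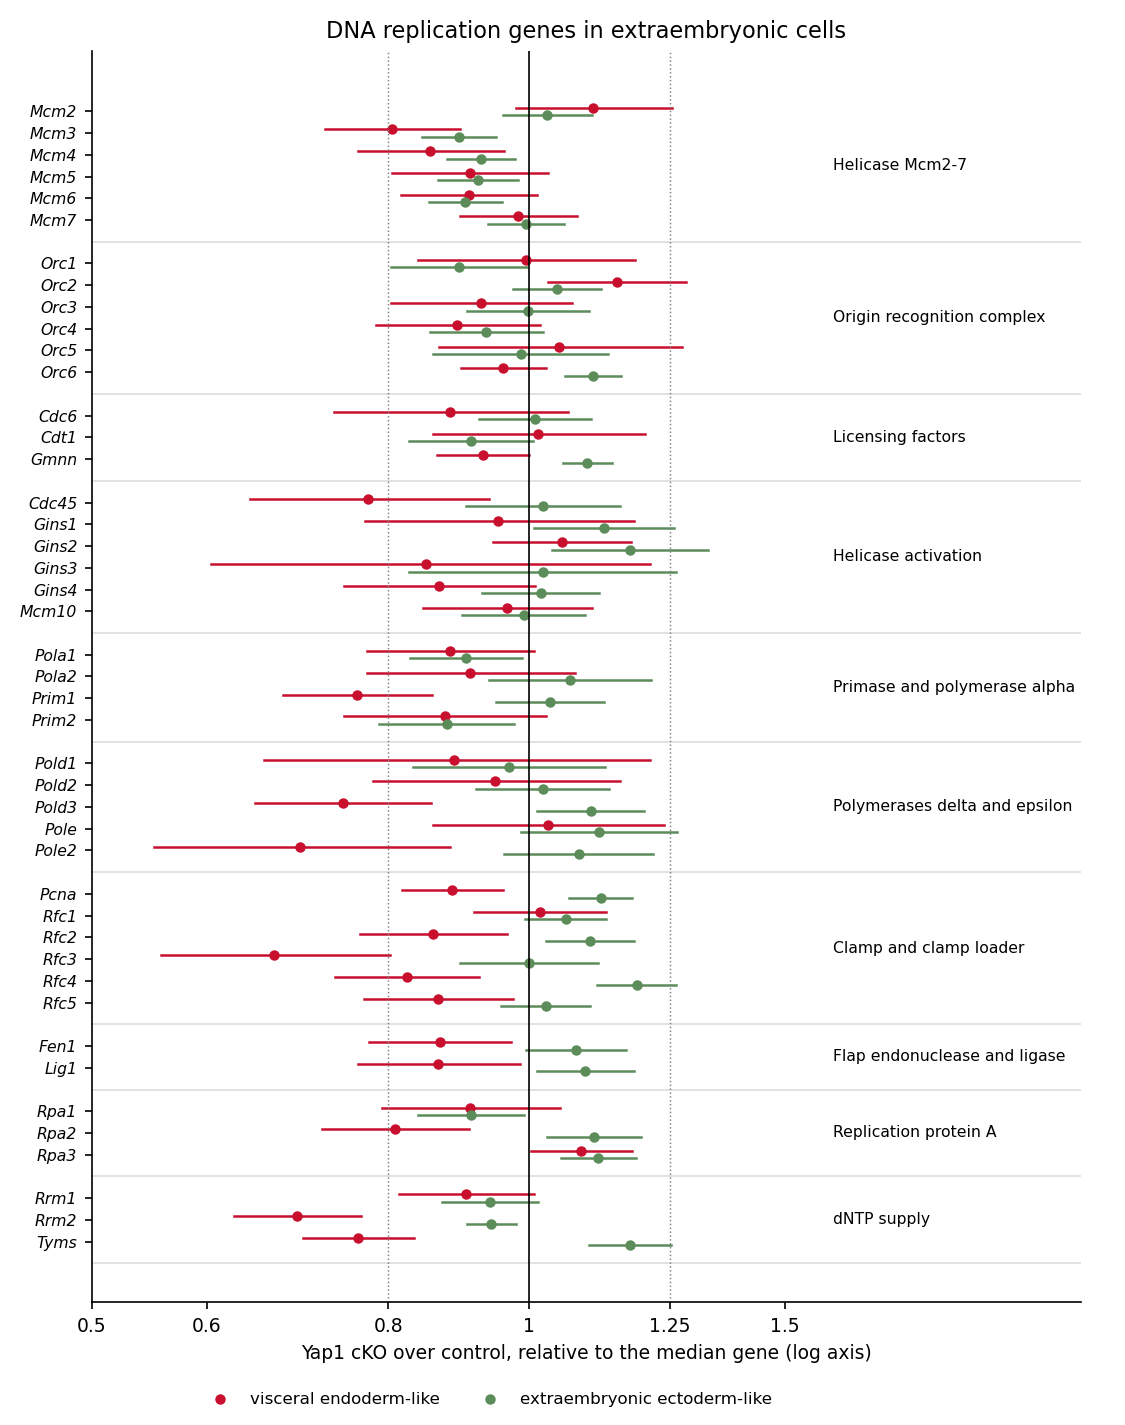
Ratio of *Yap1* cKO to control, relative to the median gene (horizontal log axis), for the 44 genes grouped by role, in visceral endoderm-like (red) and extraembryonic ectoderm-like (green) cells. Lines are 95% counting intervals and dotted lines mark 0.8 and its inverse. Red points lie below 1 for 36 genes, down to 0.668 for *Rfc3*, and all green points lie between 0.878 and 1.19.

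In extraembryonic ectoderm-like cells the genes went apart in both directions, and 9 had a counting interval wholly below 1, as 14.4% of all genes did, and 12 wholly above, as 17.9% did. Their summed ratio was 1.02 (1.01 to 1.04) relative to the median gene, the median over the genes was 1.02, and none of the 44 was below 0.8 or above 1/0.8, where 5.54% and 6.39% of all genes were. With total UMIs in place of the median gene as the scale that median was 0.980, below 1. The highest were *Rfc4* at 127 and 145 CPM with 1.19 (1.11 to 1.26), *Tyms* at 122 and 137 CPM with 1.17, *Gins2* with 1.17, *Gins1* with 1.13 and *Pcna* with 1.12. The lowest were *Prim2* with 0.878, *Mcm3* and *Orc1* with 0.895, *Mcm6* with 0.904 and *Pola1* with 0.905. The helicase genes were thus the group that lay lowest in these cells, with a median of 0.925, and the clamp and its loader lay at 1.08. Pooling all extraembryonic cells instead gave a summed ratio of 0.844 and a median of 0.851, with 42 of 44 genes below 1 and 12 below 0.8, where 16.5% of all genes were. In this pool *Rrm2* stood at 0.619 and *Gins2* at 1.36.

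In the embryonic populations, where *Yap1* is deleted, the sum of the 44 genes stayed near the median gene outside node-like cells. Single genes lay further out in both directions, such as *Cdc45* at 0.693 in primitive streak-like and *Tyms* at 1.38 in *Foxf1*/*Hand1* mesoderm-like cells. *Rrm2* had intervals below 1 in epiblast-like (0.897), primitive streak-like (0.836), nascent mesoderm-like (0.909) and blood progenitor-like cells (0.788). It stood at 0.971 in *Foxf1*/*Hand1* mesoderm-like and 1.32 in node-like cells. The summed ratio was 1.0 (0.995 to 1.01) in epiblast-like cells and between 0.981 and 1.01 in the primitive streak-like, nascent mesoderm-like, *Foxf1*/*Hand1* mesoderm-like and blood progenitor-like cells. In epiblast-like cells 1 gene was below 0.8, where 6.09% of all genes were, namely *Orc1*, which encodes the largest subunit of the origin recognition complex, at 47.6 and 36.6 CPM with 0.796 (0.726 to 0.873). *Pold1*, *Mcm10*, *Mcm6* and *Pole* followed at 0.807, 0.819, 0.885 and 0.891, and *Rpa3*, *Fen1*, *Gins2*, *Rfc4* and *Rpa2* were the highest, between 1.12 and 1.15. None was above 1/0.8, where 6.58% of all genes were. Node-like cells had a summed ratio of 1.13 (1.09 to 1.18), with 9 of the 30 genes that reached 100 UMIs above 1/0.8, where 9.51% of all genes were, but from 16 and 12 cells. Anterior visceral endoderm-like cells had a summed ratio of 0.904 (0.863 to 0.947), and 11 of the 30 genes that reached 100 UMIs were below 0.8, where 12.5% of all genes were.

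The sex-linked make-up of visceral endoderm-like cells differed between the libraries, and the result differed between Y-bearing and *Xist*-bearing cells. Y-bearing cells made up 31.1% of these cells in control and 6% in *Yap1* cKO, and *Xist*-bearing cells 62.2% and 85.5%. Among *Xist*-bearing cells, 46 and 171 in number, the 44 genes took 2985 CPM (2929 to 3041) in control and 2627 CPM (2601 to 2654) in *Yap1* cKO, and the median relative ratio was 0.887. Among Y-bearing cells, 23 and 12 in number, they took 2811 CPM (2732 to 2892) and 2881 CPM (2768 to 2998), and the median was 1.04. *Rrm2*, *Tyms*, *Prim1* and *Pold3* had ratios of 0.652, 0.685, 0.680 and 0.660 in *Xist*-bearing cells and of 1.17, 1.17, 1.13 and 1.34 in Y-bearing cells. Extraembryonic ectoderm-like cells also went apart, from 4468 to 4750 CPM in Y-bearing and from 4717 to 4412 CPM in *Xist*-bearing cells. The *Yap1* cKO library thus had the higher sum in the Y-bearing cells and the lower in the *Xist*-bearing cells of both populations, with overlapping intervals in Y-bearing visceral endoderm-like cells. Cells of either kind come from different embryos of a pool, and embryo, sex and genotype cannot be told apart here. Visceral endoderm-like cells were below extraembryonic ectoderm-like cells in each of the 4 sets.

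**Figure D5:**
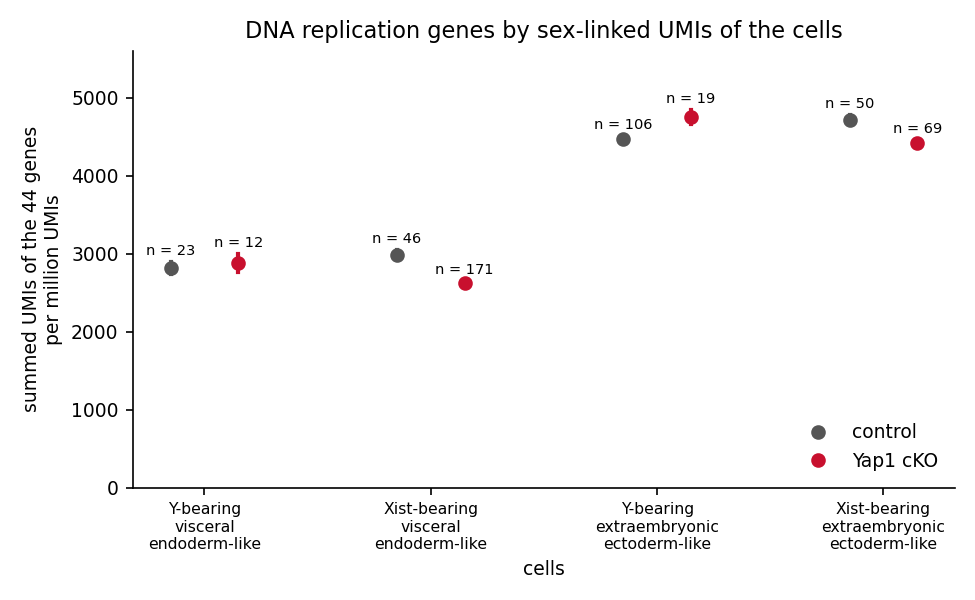
Summed UMIs of the 44 genes per 1000000 UMIs (vertical axis, CPM) in Y-bearing and *Xist*-bearing cells of the extraembryonic populations (horizontal axis), grey for control and red for *Yap1* cKO, with 95% counting intervals and the number of cells. In visceral endoderm-like cells the libraries stand at 2985 and 2627 CPM among *Xist*-bearing cells and at 2811 and 2881 CPM among Y-bearing cells.

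How far the 44 genes follow S phase within a population was read from the 25 genes of the S list that are not among them. Cells of a population and library were ranked by the score of those 25 genes, and the highest cells were set over the same number of lowest ones (22 control and 58 *Yap1* cKO cells at each end for visceral endoderm-like cells). The median ratio over the 44 genes was 1.45 in control and 1.32 in *Yap1* cKO visceral endoderm-like cells, 1.2 and 1.21 in extraembryonic ectoderm-like cells, and 1.27 and 1.28 in epiblast-like cells. *Cdc6* had the highest ratio, 4 (2.09 to 8.27) and 3.09 (2.07 to 4.73) in visceral endoderm-like cells, followed in control by *Pola1* with 3.80 and 1.99. *Rrm2* followed the score at 2.54 (1.81 to 3.63) and 2.18 (1.71 to 2.78). *Rpa3* had 1.08 and 1.10, *Rfc4* 0.764 and 0.896, and *Gins2* 1.2 and 0.994, all with intervals that held 1. *Gins2* had 77.6 CPM in control visceral endoderm-like cells, against 75.7 CPM in epiblast-like and 33.6 CPM in extraembryonic ectoderm-like cells. For this gene no rise with the score was detectable in visceral endoderm-like cells at this depth. The score of the list for G2 and M phase went the other way from the S score in visceral endoderm-like cells, from 0.116 to 0.163. The median relative ratio of its genes there was 1.08, against 0.871 for the S list, which holds 18 of the 44 genes. By sign alone, a lower S score with a higher G2 and M score was also found in the anterior visceral endoderm-like and all embryonic populations but node-like cells. The rise in the G2 and M score was only 0.00195 in *Foxf1*/*Hand1* mesoderm-like, 0.00548 in blood progenitor-like and 0.00701 in epiblast-like cells. Its standard deviation between epiblast-like cells was 0.112 in control and 0.113 in *Yap1* cKO. The largest rise among embryonic populations was in primitive streak-like cells, from 0.220 to 0.273. There the S score went from 0.167 to 0.156. Extraembryonic ectoderm-like cells had both lower, and node-like cells had the reverse.

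Other genes around replication were counted from lists by function in visceral endoderm-like cells, on the same scale of relative ratios, where 7.73% of all genes were below 0.8 and 8.65% above 1/0.8. Of 9 genes of chromatin assembly behind the fork, 3 were below 0.8 and none above 1/0.8, the histone chaperone *Asf1b* (0.679), the chromatin assembly factor subunit *Chaf1b* (0.721) and the histone mRNA binding protein *Slbp* (0.792). Of 11 licensing and fork regulators 1 was lower, *Donson*, which helps to assemble the helicase, with 0.680 (0.562 to 0.826). Of 21 measured genes of E2F and G1/S control 2 were lower and 2 higher. The lower ones were *Ccne1*, the cyclin that drives entry into S phase, at 103 and 68.1 CPM with 0.669 (0.605 to 0.740), and the pocket protein gene *Rbl1* with 0.768 (0.572 to 1.04). The higher ones were the cyclin-dependent kinase inhibitors *Cdkn1a*, at 5.64 and 16.1 CPM with 2.89 (2.0 to 4.31), and *Cdkn1c*, at 38.8 and 67.0 CPM with 1.75 (1.51 to 2.03). Of 18 genes of nucleotide supply none was lower and 3 were higher, *Cad* and *Dut* with 1.26 and the p53-induced reductase subunit *Rrm2b* with 1.48, and of 8 genes of the replication stress checkpoint none passed either bound. In extraembryonic ectoderm-like cells no gene of chromatin assembly, of licensing and fork regulation, of nucleotide supply or of the checkpoint passed a bound. Of 20 measured genes of E2F and G1/S control 4 were below 0.8 there, where 5.54% of all genes were, *Ccnd1* (0.751), *E2f6* (0.788), *E2f7* (0.762) and *Rbl1* (0.659), and 1 above 1/0.8, where 6.39% of all genes were, *Rb1* (1.32).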

How the data were processed

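Embryos were pooled by genotype and measured in 1 droplet library each. Per the labels, Cell Ranger 7.1.0 and mm10 were used, and the deposited values are raw UMI counts per gene and barcode, not normalized by the authors. Barcodes with at least 5000 detected genes were gated on summed marker CPM (visceral endoderm 1000, extraembryonic ectoderm 300, anterior visceral endoderm 500). Gate thresholds were set after the marker distributions were seen, without reference to the 44 genes. Barcodes that passed gates of 2 lineages were left out as mixed, and scrublet was used only as an alternative. No barcode above the gene minimum was shared by the libraries (0). The 44 genes and all lists were chosen with earlier results of these data known.

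UMIs were summed per population and library. Relative ratios are ratios of CPM divided by the median ratio of genes with at least 100 UMIs over both groups compared, with exact conditional binomial intervals, and exact Poisson intervals for CPM, at 95%. The bounds of 0.8 and 1/0.8 are a size, not a test. Scores used scanpy 1.11.5 (50 control genes, 25 bins) on log counts per 10000 in cells thinned to 38000 UMIs, shallower cells being left out (26 in control, 48 in the mutant library). Named in full are the genes in the S list, and the 5 lowest and 5 highest ratios per comparison; other lists give values past the bounds only. Python 3.11.15 and scipy 1.17.1 were used, and the steps were tested on simulated data. Alternatives covered gene minimums, gates, mixed barcodes, doublets, sex-linked UMIs, weights, scaling, filters, fold, thinning and gene lists.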

Additional observations from a re-analysis of the deposited data

Results flagged for a closer look

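For 8 of the 44 genes the counting intervals of the relative ratio of *Yap1* cKO to control lay at opposite sides of the median gene, below 1 in visceral endoderm-like cells and above 1 in extraembryonic ectoderm-like cells. The difference between the populations was not tested, because each genotype has 1 library, and the share of all genes with this pattern was not counted. The pattern also depends on the scale, since the median gene ratio in extraembryonic ectoderm-like cells was 0.958. On total UMIs the ratios there were lower, such as 1.05 for *Lig1* and *Gmnn* and 1.06 for *Pold3* and *Rfc2*. How many of the 8 genes keep the pattern on that scale was not counted. Taken singly, 13.4% of all genes had an interval wholly below 1 in visceral endoderm-like cells. In extraembryonic ectoderm-like cells 17.9% of all genes had one wholly above 1. The values in visceral endoderm-like and extraembryonic ectoderm-like cells were 0.744 and 1.10 for *Pold3*, 0.763 and 1.17 for *Tyms*, 0.808 and 1.11 for *Rpa2*, and 0.824 and 1.19 for *Rfc4*. They were 0.859 and 1.10 for *Rfc2*, 0.866 and 1.09 for *Lig1*, 0.885 and 1.12 for *Pcna*, and 0.930 and 1.10 for *Gmnn*. The pattern over both populations mostly did not hold in the sex-linked sets. Among *Xist*-bearing visceral endoderm-like cells *Pold3* (0.660), *Tyms* (0.685), *Rfc4* (0.725), *Rpa2* (0.757), *Rfc2* (0.765) and *Pcna* (0.869) kept intervals wholly below 1. The intervals of *Lig1* and *Gmnn* held 1 there. Among *Xist*-bearing extraembryonic ectoderm-like cells *Rfc4* stayed above 1, at 1.11 (1.01 to 1.23), and the intervals of the other genes held 1. Among Y-bearing visceral endoderm-like cells none of the 8 genes had an interval wholly below 1, and *Rfc4* lay wholly above 1, at 1.52 (1.10 to 2.09). Among Y-bearing extraembryonic ectoderm-like cells *Tyms* lay wholly below 1, at 0.824 (0.710 to 0.953). *Pold3*, *Rpa2*, *Rfc2*, *Lig1* and *Gmnn* lay wholly above 1 there, and the intervals of *Pcna* and *Rfc4* held 1.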

How the results depend on the processing

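No paired analysis was possible because each genotype has 1 library. Of 1042 values of single genes under the alternatives, 63 moved beyond their counting interval and 4 changed direction, and the cause was not tested. A change of direction was counted only for genes past 0.8 or 1/0.8 in the main results. Crossings of 1 by other genes were not counted so, such as *Rfc4* in visceral endoderm-like cells, at 0.824 in all and 1.52 in Y-bearing ones. With scores built within each library separately, chosen after seeing the data like the other seed of the thinning, the S-phase difference was -0.0388 in extraembryonic, -0.00658 in visceral endoderm-like, 0.0140 in anterior visceral endoderm-like and 0.0556 in extraembryonic ectoderm-like cells, the mix being 166% of the first, but scores of libraries are then not on 1 scale. Over the alternatives other than this and the sex-linked sets, the mix took 59.8% to 76.4%. The small anterior visceral endoderm-like difference was -0.00445 without the 44 genes, -0.0382 at a lower gene minimum, 0.0173 with stricter gates, 0.0390 in Y-bearing cells and -0.125 in *Xist*-bearing ones. That of extraembryonic ectoderm-like cells was -0.00114 without thinning, -0.00796 for the 44 genes, -0.00261 with another seed, -0.00176 at a higher gene minimum, 0.0666 in Y-bearing cells and -0.0433 in *Xist*-bearing ones. That of visceral endoderm-like cells was -0.0383 for the 44 genes. In Y-bearing cells the S-phase difference was -0.0156 overall and -0.0121 in visceral endoderm-like cells. There the visceral endoderm-like median and summed ratios were 1.04 and 1.0, with 4 genes below 0.8 and *Prim1*, *Pold3*, *Rrm2* and *Tyms* at 1.13, 1.34, 1.17 and 1.17. The extraembryonic ectoderm-like median and sum were 1.11 and 1.11, and the median between the populations in *Yap1* cKO was 0.694. In *Xist*-bearing cells the mix term was -0.0322, 11 genes were below 0.8 in visceral endoderm-like cells, and the extraembryonic ectoderm-like median and sum were 0.947 and 0.957. The shares of all genes below 0.8 in the sex-linked sets were not counted, so the counts of 4 and 11 genes cannot be compared. The summed ratio was 0.924 in visceral endoderm-like cells at the lower gene minimum and 1.01 in extraembryonic ectoderm-like cells weighted equally, whose median was 0.980 on total UMIs. At a fold of 1.5 no gene (0) was that much lower in visceral endoderm-like cells. The Y-bearing values rest on 12 *Yap1* cKO visceral endoderm-like cells, and the anterior ones on 21.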
